A study of Homo sapiens with 11 samples.

Results

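HERVH is a family of human endogenous retroviruses of the ERV1 class, and LTR7 with its variants LTR7B, LTR7C and LTR7Y are the long terminal repeats (LTRs) that flank its internal part. The elements described here are all rows of the deposited J2 repeat tables whose names begin with HERVH, LTR7, LTR7B, LTR7C or LTR7Y, 9960 of the 5622516 repeat elements listed. They comprise 5931 HERVH-int elements (internal retroviral sequence), 124 HERVH48-int elements (internal sequence of a separate family with a similar name), 2427 LTR7, 888 LTR7B, 332 LTR7C and 258 LTR7Y elements. A full provirus has an LTR at each end of its internal part. Recombination between those ends leaves a solitary LTR, and an LTR can act as a promoter. In human pluripotent stem cells LTR7-driven HERVH transcripts are abundant, and in most adult tissues DNA methylation and repressive chromatin hold such elements silent. J2 is an antibody that binds double-stranded RNA, so the reads count RNA pulled down with it rather than all RNA made from an element.

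The cells were HCT116, an established human colorectal cancer line. The control siRNA was directed at luciferase (siLuc), and the other at Staufen1 (siStau1), a protein that binds double-stranded RNA. Decitabine (DAC), which blocks DNA methylation, was given at 500 nM for 5 days, and DMSO is its solvent. J2 RNA was sequenced in 3 libraries, 1 for each of the treatments siLuc DMSO, siLuc DAC and siStau1 DAC. For total RNA the 4 combinations of siLuc or siStau1 with DMSO or DAC had 2 libraries each. J2 RNA of siStau1 cells without DAC was not analysed here, so the knockdown was compared in J2 RNA only in cells that also had DAC. The protocol text shared by all 11 libraries names an antibody against Staufen1, while the labels of these 3 libraries name J2, so the antibody used is uncertain.

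The 3 J2 libraries held 71473124, 68944777 and 83037330 reads on repeats, in the order siLuc DMSO, siLuc DAC, siStau1 DAC that is used throughout. With 1 library per group there was no replicate check, no p-value is given for J2 RNA, and the intervals printed are Wilson 95% intervals that cover counting error only. Levels are in RPM (reads per 1000000 reads on repeats) unless another unit is named, and ratios are log2 ratios of such levels, so every direction is relative to the total on repeats. The factors contained in the deposited columns would add 0.89 to each log2 ratio of siLuc DAC over siLuc DMSO, 0.57 to siStau1 DAC over siLuc DMSO and -0.32 to siStau1 DAC over siLuc DAC. Among repeats that reached 100 reads over all 3 libraries, siLuc DAC was the highest of the 3 libraries for 32.4% and the lowest for 44.8%. For elements of all LTR families these shares were 47.7% and 27.3%. In bulk RNA, fewer cells carrying a transcript and less transcript per cell cannot be told apart. In total RNA, STAU1, the siRNA target, was at 35.5 FPKM (fragments per kilobase of transcript, scaled to depth) in siLuc DMSO and 30.0 in siStau1 DMSO. With DAC it was at 33.7 FPKM in siLuc and 27.1 in siStau1 cells, and neither difference passed in the authors' deposited table (q = 0.767 and 0.685). The J2 tables hold repeats only and give no such check. Of 7 colorectal epithelial markers, EPCAM, CDH1, KRT8, KRT18, KRT19 and CDX2 were at 2.76 FPKM or more in every group, while VIL1 (villin) was at 0.198 FPKM or less. With DAC in siLuc cells EPCAM was called lower (259 and 117 FPKM without and with DAC, q = 0.0157) and KRT19 higher (537 and 1419 FPKM, q = 0.00162) in the authors' deposited table. Within siStau1 cells, KRT19 and KRT18 were called higher with DAC than with DMSO (q = 0.0165 and 0.0348 in that table).

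Most elements gave no J2 read. In the 3 libraries, 6807 elements had none, 3153 (31.7%) had at least 1 read in some library, and 1125 had reads in all of them. The share with a read in some library was 30.3% over all LTR elements, and among the subfamilies it ran from 25.6% for LTR7 to 39.1% for LTR7Y and 58.9% for HERVH48-int. The elements together took 147319, 116321 and 226955 reads, or 2061, 1687 and 2733 RPM. They made up 3.84%, 2.53% and 3.91% of the reads on LTR elements. The total was thus lowest in siLuc DAC and highest in siStau1 DAC.

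HERVH-int took nearly all of these reads. Its level was 1905, 1502 and 2529 RPM. LTR7, its most common LTR, was at 60.0, 64.0 and 77.5 RPM. LTR7B was at 33.3, 41.7 and 43.8 RPM. On this scale each of these LTR subfamilies was highest in siStau1 DAC and lowest in siLuc DMSO, though LTR7 without the run of its most-read element was highest in siLuc DAC (log2 ratio of siStau1 DAC over siLuc DAC -0.041), while under the deposited factors both were highest in siLuc DAC (log2 ratio of siStau1 DAC over siLuc DAC -0.047 for LTR7 and -0.25 for LTR7B). LTR7C was at 16.0, 26.5 and 26.1 RPM, and LTR7Y, a variant known for activity in the early human embryo, was at 16.7, 26.0 and 21.7 RPM. These rarer variants were both lowest in siLuc DMSO, and LTR7Y was lower in siStau1 DAC than in siLuc DAC. HERVH48-int was at 30.0, 27.4 and 35.4 RPM, so it and HERVH-int were the subfamilies whose sum was lower in siLuc DAC than in siLuc DMSO, a direction that the deposited factors turn (log2 ratios of 0.76 and 0.55 in place of -0.13 and -0.34), and LTR7 joined them when scaled to LTR reads (-0.22) or to reads outside Alu (-0.23).

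**Figure D1:**
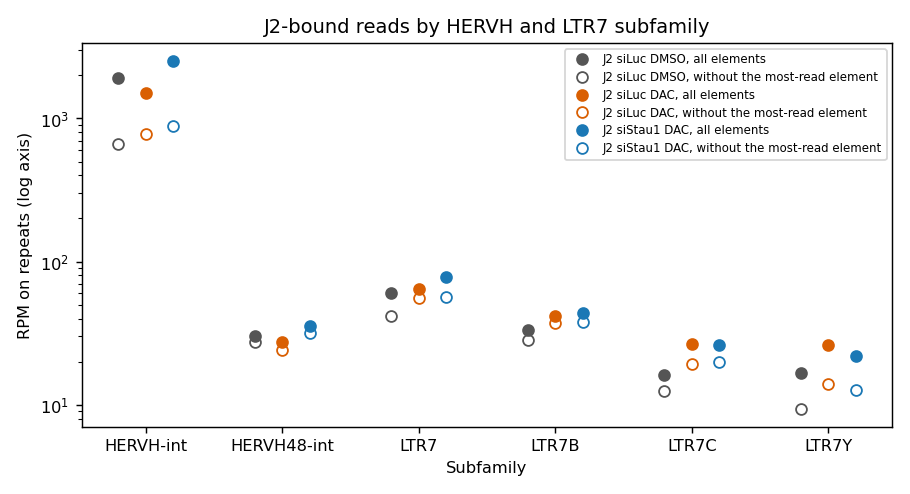
Level in RPM (reads per 1000000 reads on repeats; log axis) for each subfamily in the 3 J2 libraries, with all elements (filled) and without the subfamily's most-read element in that library (open). For LTR7B, LTR7C and HERVH48-int the element left out is not the same in every library. HERVH-int falls from 1905, 1502 and 2529 to 666, 778 and 879 RPM when its most-read element is left out, and its order of libraries changes.

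A single HERVH-int element held most of the HERVH-int reads in 2 of the libraries and nearly as many as all others together in siLuc DAC. HERVH-int_15656 had 88590, 49858 and 136973 reads (the number in a name is the table's own, and its meaning is not given in the sources used here). It held 65.1%, 48.2% and 65.2% of HERVH-int reads and ranked 1, 2 and 1 among 771683 LTR elements. Among all repeats it ranked 9, 11 and 7. It was 1.71-fold lower in siLuc DAC than in siLuc DMSO (log2 ratio -0.78, 95% interval -0.79 to -0.76). The deposited factors add 0.89 to that log2 ratio, which turns its direction. In siStau1 DAC, HERVH-int_15656 was 2.28-fold higher than in siLuc DAC (log2 ratio 1.19, 95% interval 1.17 to 1.20) and 1.33-fold higher than in siLuc DMSO.

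**Figure D2:**
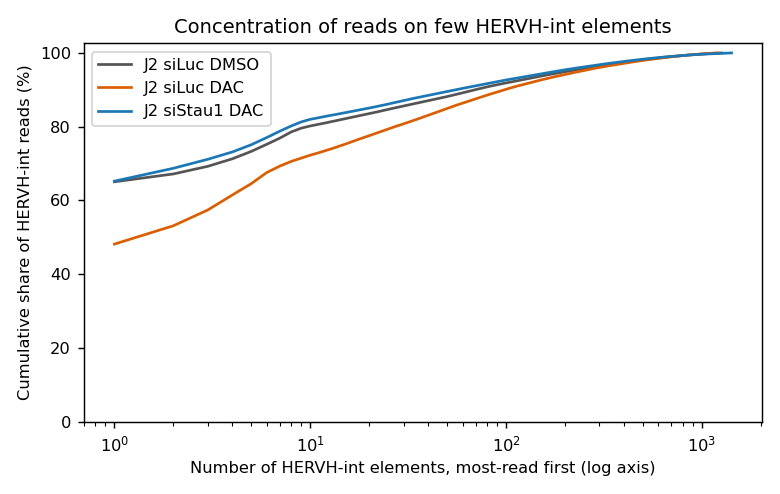
Cumulative share of HERVH-int reads (percent) against the number of HERVH-int elements, most-read first (log axis), 1 line per J2 library. The first element holds 65.1%, 48.2% and 65.2%, and the 10 most-read elements hold 80.2%, 72.3% and 82.0% (siLuc DMSO first, then siLuc DAC).

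The tables give no positions, but their order places parts of a provirus next to each other. An LTR7 row stood directly beside a HERVH-int row for 70.2% of LTR7 elements, compared with 0.288% of the 2781 elements of LTR12C, an LTR of another ERV1 family. Rows of HERVH-int and LTR7 names that follow each other without a gap are called a run here. Any other repeat row ends a run, so a provirus interrupted by another repeat is split into separate runs. The run of HERVH-int_15656 has 8 entries, an LTR7 at each end and 6 HERVH-int entries between them, which is the layout of a provirus with both ends. Its leading LTR7_2625 had 169, 74 and 321 reads, and its closing LTR7_2648, the most-read LTR7 element, had 1296, 587 and 1721. The internal entry HERVH-int_4005 had 2894, 3114 and 7322 reads, and HERVH-int_3130 had 2279, 1814 and 4146. Every entry of the run except HERVH-int_884 (1, 0 and 1 reads) was highest in siStau1 DAC in RPM, and both ends were lowest in siLuc DAC.

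The whole run had 96362, 56418 and 152811 reads, 65.4%, 48.5% and 67.3% of all reads described here. Scaled, it stood at 1348, 818 and 1840 RPM. Its log2 ratio of siLuc DAC over siLuc DMSO was -0.72, and the deposited factors add 0.89, which turns that direction. The next most-read run had 27.2-fold, 8.43-fold and 25.3-fold fewer reads. The 15 table entries before it had 52, 19 and 74 reads in all, whereas the 15 entries after it had 20050, 17367 and 34301. Of those later entries, 7 had at least 100 reads in each library and carry other repeat names, such as LTR17_3555 with 7695, 7456 and 15010 reads. Reads were thus few before the run and many in some, but not all, of the entries after it. The entry directly after the run, MIR_396_12, had 0, 0 and 1 reads. For LTR17_3555 the log2 ratio of siLuc DAC over siLuc DMSO was 0.006. Whether these entries share a transcript with the run was not tested.

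**Figure D3:**
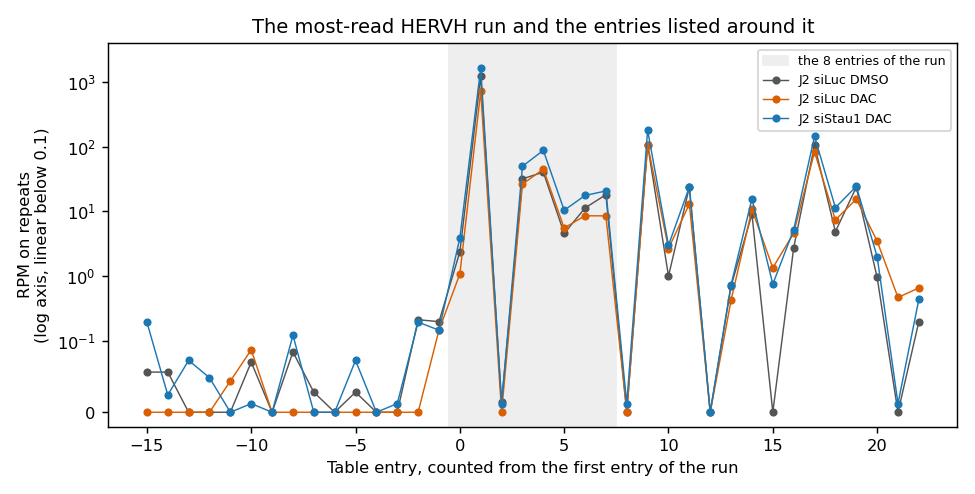
Level in RPM (reads per 1000000 reads on repeats; log axis, linear below 0.1) for the 8 entries of the run of HERVH-int_15656 (grey band) and the 15 table entries listed on each side, counted from the run's first entry; 1 line per J2 library. The entries before the run hold 52, 19 and 74 reads, and those after it 20050, 17367 and 34301.

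Decitabine in siLuc cells: the summed level of all 9960 elements was 1.22-fold lower with DAC (log2 ratio -0.29, 95% interval -0.30 to -0.28, and 0.60 under the deposited factors), and without the run of HERVH-int_15656 it was 1.22-fold higher (log2 ratio 0.29, 95% interval 0.27 to 0.30). The run turned the direction of the sum only on this scale: without it the log2 ratio was -0.024 scaled to LTR reads and -0.037 scaled to reads outside Alu, below 0 as with it, and 1.17 under the deposited factors, above 0 as with it. Of the 616 elements with at least 20 reads in both libraries together, 162 were more than 2-fold higher with DAC (26.3%) and 118 more than 2-fold lower (19.2%). Over all repeats, 21.3% were that much higher and 17% that much lower, and over LTR elements 36.1% and 12.6%. The median log2 ratio was 0.26 for these elements, 0.013 for all repeats and 0.57 for LTR elements, and it was -0.048 for these elements when scaled to LTR reads and -0.062 scaled to reads outside Alu. Under the factors contained in the deposited columns the counts were 335 higher and 53 lower, scaled to reads outside Alu 110 and 162, and scaled to LTR reads 111 and 159.

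The internal part and the LTRs had different medians in this comparison. For HERVH-int the median over 424 elements was 0.052 (-0.26 scaled to LTR reads, -0.27 scaled to reads outside Alu and 0.94 under the deposited factors), with 86 more than 2-fold higher and 95 more than 2-fold lower. For LTR7 it was 0.87 over 73 elements, and 0.55 to 1.76 under the other scalings, with 34 higher and 9 lower by that margin. LTR7B had a median of 0.92 (25 higher, 5 lower, of 53) and LTR7Y of 0.62 (4 and 1, of 16). LTR7C had a median of 0.40 over 20 elements, and HERVH48-int of 0.25 over 30. More than 2-fold higher were 46.6% of LTR7, 47.2% of LTR7B, 25% of LTR7C, 25% of LTR7Y, 20.3% of HERVH-int and 26.7% of HERVH48-int. Lower by that margin were 12.3%, 9.43%, 10%, 6.25%, 22.4% and 20% in that order. Over all LTR elements the shares were 36.1% and 12.6%, and the median was 0.57. The difference between the internal part and the LTRs was not tested, since there was 1 library per group.

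The knockdown with decitabine, siStau1 DAC over siLuc DAC: the summed level was 1.62-fold higher in siStau1 DAC (log2 ratio 0.70, 95% interval 0.69 to 0.71), and without the run of HERVH-int_15656 the log2 ratio was 0.039 (95% interval 0.024 to 0.055, and -0.28 under the deposited factors, -0.029 scaled to LTR reads and 0.25 scaled to reads outside Alu). Of 692 elements, 187 were more than 2-fold higher (27.0%) and 96 more than 2-fold lower (13.9%). The shares were 15.5% and 14.8% over all repeats, and 18.3% and 17.2% over LTR elements. HERVH-int had 144 of 473 elements more than 2-fold higher and 58 lower, with a median log2 ratio of 0.20 (-0.12 under the deposited factors). For the LTRs the medians were -0.02 (LTR7, 85 elements), -0.05 (LTR7B, 60), 0.16 (LTR7C, 23) and 0.01 (LTR7Y, 20). The elements' counts were 129 and 148 under the factors in the deposited columns, 216 and 70 scaled to reads outside Alu, and 177 and 105 scaled to LTR reads. This comparison and the preceding one share the siLuc DAC library, so an element low in that library alone is counted as lower in the one and higher in the other.

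The outer libraries, siStau1 DAC over siLuc DMSO, do not use siLuc DAC. The summed level was 1.33-fold higher in siStau1 DAC (log2 ratio 0.41), and 1.25-fold higher without the run of HERVH-int_15656 (log2 ratio 0.32, and -0.053 scaled to LTR reads). Of 678 elements, 137 were more than 2-fold higher (20.2%) and 31 more than 2-fold lower (4.57%). Those shares were 14.5% and 8.27% over all repeats, and 27.7% and 4.85% over LTR elements. The share higher thus lay between the shares of all repeats and of LTR elements, and the share lower was near that of LTR elements. Medians were above 0 in each subfamily, apart from HERVH-int (-0.075) and HERVH48-int (-0.054) when scaled to LTR reads, and lay at 0.30 for HERVH-int, 0.32 for HERVH48-int, 0.71 for LTR7, 0.47 for LTR7B, 0.66 for LTR7C and 0.45 for LTR7Y. Scaled to LTR reads, 73 elements were more than 2-fold higher and 75 lower, scaled to reads outside Alu 118 and 43, and under the deposited factors 309 and 11.

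Runs were grouped by the kind of LTR at their ends. The 887 runs with an LTR at both ends held 89.9%, 85.6% and 90.5% of the reads described here. The 668 runs with LTR7 at both ends had 108686, 68091 and 169581 reads, of which the run of HERVH-int_15656 held 88.7%, 82.9% and 90.1%. Without it they had 12324, 11673 and 16770 reads, or 172, 169 and 202 RPM, so siLuc DMSO and siLuc DAC then differed by a log2 ratio of -0.03. Run by run, the median log2 ratio of siLuc DAC over siLuc DMSO was -0.29 over 172 runs (0.60 under the deposited factors), with 26 more than 2-fold higher and 52 more than 2-fold lower. These were 15.1% and 30.2% of the runs, beside 36.1% and 12.6% of single LTR elements. For siStau1 DAC over siLuc DAC the median was 0.69 over 195 runs, and 0.37 to 0.90 under the other scalings, with 77 higher and 20 lower. These were 39.5% and 10.3%, beside 18.3% and 17.2% of single LTR elements.

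Runs with LTR7Y at both ends numbered 68 and had 14150, 19573 and 20621 reads. A few of them carried the sum, and the pooled reads of the others had the opposite direction on this scale. The 5 most-read runs include those that begin with LTR7Y_2541 (3233, 6695 and 5146 reads), LTR7Y_2637 (3538, 5833 and 5474) and LTR7Y_2641 (2674, 4286 and 3662). These were highest in siLuc DAC in RPM. The run that begins with LTR7Y_2601 was lowest there, with 3081, 1472 and 4159 reads. The other 63 runs together had 1443, 948 and 1907 reads, or 20.2, 13.8 and 23.0 RPM. Summed over all 68 runs, siLuc DAC over siLuc DMSO gave a log2 ratio of 0.52, while the median run was at -0.43 (0.46 under the deposited factors and 0.052 at a minimum of 50 reads). Of the 33 runs with enough reads 13 were higher and 20 lower, with 1 more than 2-fold higher and 14 more than 2-fold lower. These were 3.03% and 42.4%, beside 36.1% and 12.6% of single LTR elements. For siStau1 DAC over siLuc DAC the sum gave -0.19 and the median run 0.98 (0.66 to 1.19 under the other scalings), with 18 of 36 more than 2-fold higher and 0 more than 2-fold lower. Of single LTR elements 18.3% and 17.2% were that much higher and lower.

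Runs ended by LTR7C were dominated by 1 member, the run that begins with LTR7C_3674, which had 3164, 5371 and 6036 reads of the class's 4415, 7004 and 7640. The 7 of its 27 runs with enough reads were all higher with DAC than with DMSO in siLuc cells (median log2 ratio 0.65). The 90 runs ended by LTR7B had 4189, 4047 and 6164 reads, with medians of 0.09 for siLuc DAC over siLuc DMSO and 0.17 for siStau1 DAC over siLuc DAC. The 500 runs that hold both parts but lack an LTR at one end or at both had 8625, 9222 and 12057 reads. Their medians were -0.07 for siLuc DAC over siLuc DMSO and 0.13 for siStau1 DAC over siLuc DAC. HERVH-int entries with no LTR row beside them formed 114 runs with 616, 906 and 757 reads. In those, 7 of 19 runs were more than 2-fold higher with DAC in siLuc cells and 0 were that much lower, and the share of 36.8% higher is near the 36.1% of all LTR elements. For siStau1 DAC over siLuc DAC their median was -0.57 over 22 runs (-0.89 to -0.36 under the other scalings). Of these runs 0 were more than 2-fold higher and 7 lower (31.8%), beside 18.3% and 17.2% of LTR elements.

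**Figure D4:**
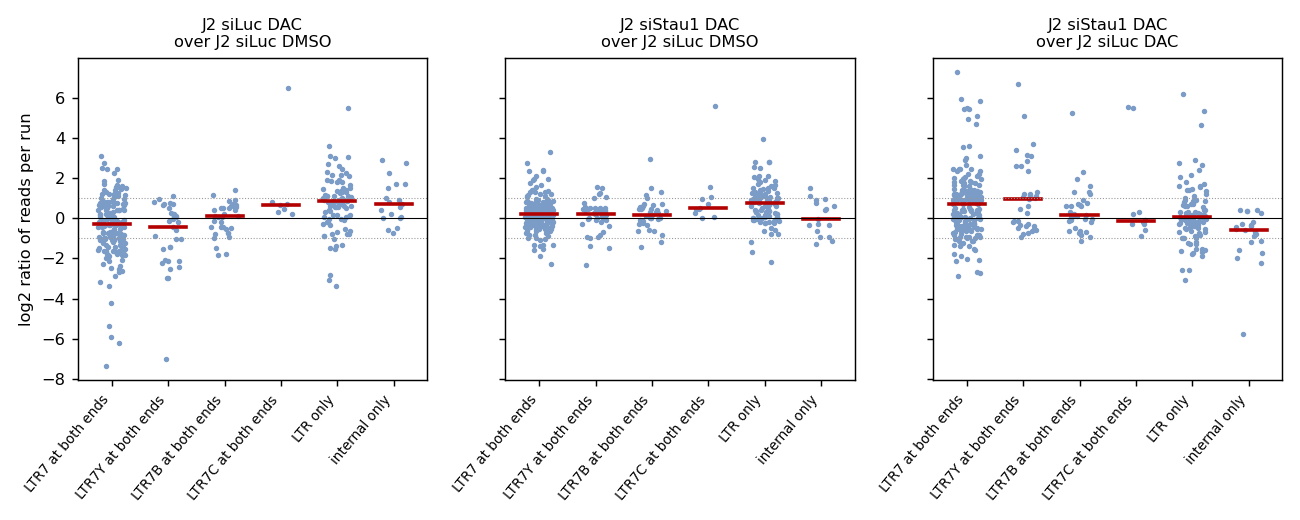
Log2 ratio of reads per run (points) with the median of each class (red line) by the LTR at the ends of the run, in the 3 J2 comparisons; runs have at least 20 reads in both libraries together and dotted lines mark 2-fold. For siLuc DAC over siLuc DMSO the medians are -0.29 with LTR7 and -0.43 with LTR7Y at both ends (0.60 and 0.46 under the deposited factors), and 0.84 for runs of LTRs only.

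LTRs with no HERVH-int row beside them formed 1438 runs with 3564, 4748 and 5855 reads. A solitary LTR has this layout, but an LTR cut off from its internal part by another repeat row falls in the same class. No run dominated: the most-read one held 4.49%, 5.08% and 4.49% of the class. The level was 49.9, 68.9 and 70.5 RPM, so on this scale both DAC libraries lay above the DMSO library and differed little from each other. The median log2 ratio was 0.84 for siLuc DAC over siLuc DMSO (0.52 to 1.73 under the other scalings), with 37 of 92 runs more than 2-fold higher (40.2%) and 8 more than 2-fold lower (8.70%), beside 36.1% and 12.6% of all LTR elements. It was 0.75 for siStau1 DAC over siLuc DMSO (35 and 3 of 98, or 35.7% and 3.06%, beside 27.7% and 4.85% of LTR elements). For siStau1 DAC over siLuc DAC it was 0.04 (-0.28 to 0.25 under the other scalings), with 21 and 17 of 107 (19.6% and 15.9%, beside 18.3% and 17.2%). LTR7 elements alone were divided by place in the same way, and the difference was not tested. Of the 709 whose run holds no HERVH-int, few had enough reads. Their medians over siLuc DMSO were 0.99 in siLuc DAC (42 elements) and 0.94 in siStau1 DAC (45). Of the 1718 whose run holds HERVH-int, those with enough reads had medians of 0.70 (31 elements) and 0.17 (28). At a minimum of 50 reads these were 0.84 and 0.44 without HERVH-int, and 0.33 and 0.33 with it.

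Within a run, the internal part and the LTRs were compared by the side of 0 on which their log2 ratios lay. Of 48 runs in which both parts had at least 20 reads, 39 had both on the same side of 0 for siLuc DAC over siLuc DMSO. The count was 34 of 49 for siStau1 DAC over siLuc DMSO and 38 of 54 for siStau1 DAC over siLuc DAC. Entries of a run can share a transcript, so they are not independent of each other. For siLuc DAC over siLuc DMSO, 40464 of 58899 LTR elements lay above 0 and 18435 below it, so unrelated parts can also share a side. The side depends on the scaling, and whether parts of a run shared it more often than unrelated elements was not tested.

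Several further runs followed the order of the most-read one, lowest in siLuc DAC in RPM, though not under the deposited factors. The run that begins with LTR7_2668, with LTR7 at both ends, had 1392, 822 and 2324 reads. The run that begins with HERVH-int_5449 had 1697, 1085 and 1822 reads, and the LTR7B-ended run that begins with LTR7B_3431 had 1105, 641 and 1178. Both were highest in siLuc DMSO, unlike the run of HERVH-int_15656. The LTR7B-ended run that begins with LTR7B_3255 had 629, 526 and 1450 reads, 1 of the few large runs that stood well above siLuc DMSO in siStau1 DAC (log2 ratio 0.99). The reverse order, highest in siLuc DAC, was seen in the runs that begin with LTR7C_363 (728, 866 and 851 reads) and LTR7_3039 (527, 673 and 523).

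Among the 20 most-read runs, 13 were highest in siLuc DAC and 7 were lowest there, with none between the other libraries. Of the 214 runs that reached 100 reads over all 3 libraries, 89 were highest and 91 lowest in siLuc DAC. With LTR7 at both ends the counts were 26 and 46 of 76 runs, and with LTR7Y at both ends 7 and 10 of 19. Over all 266 elements of that depth, siLuc DAC was highest for 43.2% and lowest for 41.0%, beside 47.7% and 27.3% of LTR elements. The part of that library itself in these orders was not tested.

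The largest ratios among elements with at least 100 reads came from the siLuc DAC library in both directions. HERVH-int_19377, in a run with LTR7 at both ends, had 122, 2 and 119 reads. HERVH48-int_19732_2 had 181, 4 and 287 reads, and HERVH-int_19269, between LTR7Y ends, had 135, 18 and 199. Each was lowest in siLuc DAC, the last of them 7.23-fold lower than in siLuc DMSO. Of the 95 elements that reached 100 reads in both outer libraries, 1 (1.05%) was at 0 in siLuc DAC. Over all repeats of that depth the share was 0.681%. The element was HERVH-int_25093, with 186, 0 and 199 reads. Against a floor of 3 reads it was at least 59.8-fold lower in siLuc DAC than in siLuc DMSO and at least 55.1-fold lower than in siStau1 DAC. At a lower limit of 20 reads, 10 of 324 elements (3.09%) were at 0 in siLuc DAC, compared with 2.15% of all repeats of that depth.

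The opposite pattern was found in other elements. HERVH-int_6547 had 16, 182 and 31 reads, and HERVH-int_15205_2, from the same run with LTR7 ends, had 70, 300 and 56. HERVH-int_5686, with no LTR beside it, had 10, 105 and 30 reads, and HERVH-int_17454 had 29, 126 and 18. LTR7B_2386 had 16, 102 and 54 reads. HERVH-int_18982 was low in siLuc DAC and highest in siStau1 DAC, with 45, 12 and 140 reads.

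Ratios between the outer libraries were smaller. The highest were LTR7C_2178 with 19, 83 and 83 reads, HERVH48-int_4147 with 56, 80 and 209, and LTR7_2197 with 31, 77 and 112. LTR7C_2178 and LTR7_2197 are LTRs with no HERVH-int beside them. The lowest were HERVH-int_15432 with 81, 30 and 51 reads, LTR7B_3535_2 with 102, 37 and 68, and HERVH-int_2770 with 164, 110 and 120. The lowest log2 ratio of siStau1 DAC over siLuc DMSO in this group was -0.88, while the highest was 1.91.

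Of the most-read elements of the remaining subfamilies, 3 were highest in siLuc DAC and lowest in siLuc DMSO in RPM, and LTR7B_2890 was lowest in siLuc DAC. LTR7B_2890 had 342, 228 and 360 reads, LTR7C_3674 had 250, 435 and 520, and LTR7Y_2647, in the run that begins with LTR7Y_2637, had 528, 825 and 754. HERVH48-int_17642 had 176, 221 and 242 reads. For siStau1 DAC over siLuc DAC, the log2 ratio was -0.011 for LTR7C_3674 (95% interval -0.19 to 0.17) and -0.14 for HERVH48-int_17642 (-0.40 to 0.13). For siStau1 DAC over siLuc DMSO it was 0.24 for HERVH48-int_17642 (-0.04 to 0.52). These 3 differences lie within counting error. LTR7C_3674 was 1.80-fold higher with DAC than with DMSO in siLuc cells (log2 ratio 0.85, 95% interval 0.63 to 1.08), whereas LTR7B_2890 was 1.45-fold lower (log2 ratio -0.53, 95% interval -0.77 to -0.29). None of the LTR7 rows stood beside a HERVH48-int row (0 of 2427), and 86 of the rows next to HERVH48-int under other names (56.6%) were MER48, another ERV1 LTR.

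Genes known to be tied to HERVH or LTR7 were read in total RNA, where the deposited table gives 1 FPKM value per group of 2 libraries and the authors' own test. Of 8 such genes, 3 were tested in each DAC comparison and 1 was called at q below 0.05 in each. Over all tested genes, 8.71% were called higher and 4.78% lower with DAC in siLuc cells, and 4.56% and 2.89% in siStau1 cells. For siStau1 over siLuc, 0.333% were called higher and 0.466% lower with DMSO, and 0.434% and 0.469% with DAC, and no HERVH-linked gene was among them. The called gene was ERVH48-1 (GRCh38 chromosome 21, 42916803 to 42925646), which derives from a HERVH48 provirus and encodes suppressyn, a placental inhibitor of cell fusion. It was listed at 0 FPKM in both DMSO groups, and with DAC at 0.902 in siLuc and 1.21 in siStau1 cells (q = 0.00162 in each arm in the authors' deposited table). Between siStau1 and siLuc with DAC it was not called. Of the 7 epithelial markers, KRT19, KRT18 and EPCAM were called in 1 or both arms, as given above. Of 4 markers of other cell types, 2 were called higher with DAC in siLuc cells and 3 in siStau1 cells. Their summed level was 2.67 and 53.8 FPKM without and with DAC in siLuc cells and 2.04 and 38.6 in siStau1 cells, mostly VIM (vimentin). PTPRC, which marks blood cells, was listed at 0 FPKM in both DMSO groups and at 0.174 and 0.820 with DAC, and PECAM1, which marks endothelium, was at 0.777 FPKM or less. Their part in the result was not tested. In J2 RNA the HERVH48-int sum had a log2 ratio of siLuc DAC over siLuc DMSO of -0.13, which was 0.76 under the deposited factors and -0.0051 without HERVH48-int_19732_2, and 16 of 30 elements were higher. Which of these rows lies in this gene is not given.

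HHLA3, a HERV-H LTR-associating gene (chromosome 1, 70354805 to 70385339), was at 1.79 and 5.89 FPKM without and with DAC in siLuc cells. In siStau1 cells it was at 2.62 and 3.42 FPKM, and no comparison was called (q = 0.177 and 0.851 for DAC in the authors' deposited table). ABHD12B (chromosome 14, 50872160 to 50904970) was listed at 0 FPKM in both DMSO groups, and with DAC at 1.49 in siLuc and 0.822 in siStau1 cells (q = 0.362 and 0.346 in the deposited table). HHLA2 (chromosome 3, 108296490 to 108378285), an immune checkpoint ligand, was listed at 0 with DMSO, and with DAC at 0.0750 FPKM in siLuc and 0.273 in siStau1 cells. HHLA1 and LINC-ROR, a noncoding RNA of pluripotent cells, stayed at 0.0128 FPKM or less. ESRG and LINC00458, HERVH-derived noncoding RNAs of pluripotent cells, were listed at 0 in all 4 groups.

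Of 5 transcription factors known to bind LTR7, none was called in any of the 4 comparisons by the authors' test, and 2 were tested. KLF4 was at 7.86 and 18.2 FPKM without and with DAC in siLuc cells, and at 5.09 and 11.1 in siStau1 cells (q = 0.0587 and 0.113 for DAC in the authors' deposited table). TFCP2L1 was at 1.45, 2.94, 1.99 and 2.37 FPKM in that order of groups. POU5F1, which encodes OCT4, was at 0, 0.399, 0 and 0.0396 FPKM. SOX2 was at 0.144 FPKM or less and NANOG at 0.00511 or less, so the defining pluripotency factors were near 0. Of 3 other genes of pluripotent cells, DPPA4 was called with DAC in both arms (0 to 5.52 FPKM in siLuc cells and 0 to 3.81 in siStau1 cells). ZFP42 was at 0.0226 and 12.2 FPKM without and with DAC in siLuc cells and at 0.0284 and 13.3 in siStau1 cells, and was not called.

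**Figure D5:**
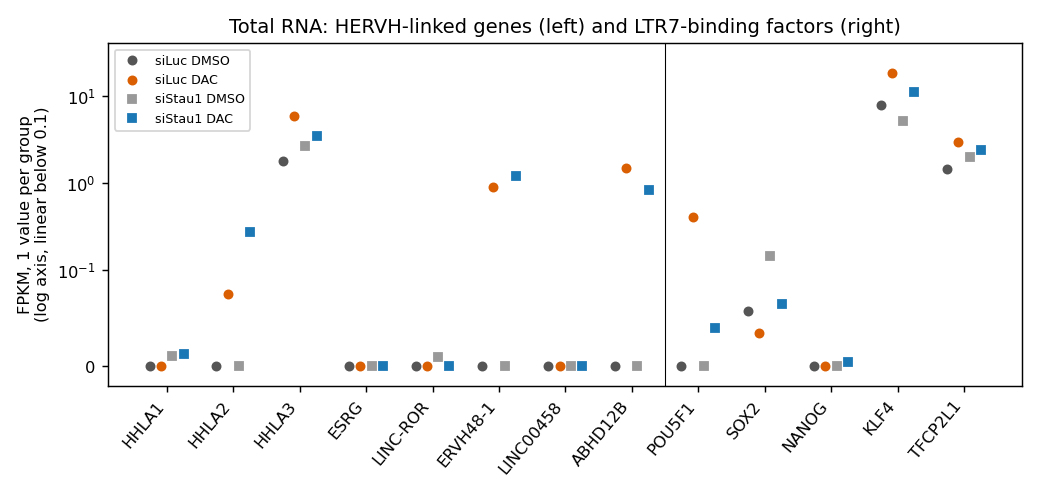
Total RNA level in FPKM (log axis, linear below 0.1), 1 deposited value per group, for 8 HERVH-linked genes (left) and 5 LTR7-binding factors (right). ERVH48-1 lies at 0 in both DMSO groups and at 0.902 and 1.21 in the DAC groups, and ESRG and LINC00458 lie at 0 throughout.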

How the data were processed

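J2 RNA was read from 3 repeat tables and total RNA from 1 table of genes. The submitters' processing notes name HISAT2 2.1.0, featureCounts, DESeq 1.36.0, Cuffdiff 2.2.1 and build hg38, without their order. How reads that fit several copies were assigned, and whether strand was used, is not given in the sources used here. Near-identical copies can therefore share reads.

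For siLuc DMSO the authors deposited counts, each raised by 1. The other deposited columns are a signal, (reads plus 1) multiplied by 1 factor (1.92 for siLuc DAC, 1.27 for siStau1 DAC), and dividing by the minimum gave whole reads for every value within a tolerance of 1e-06. Even counts outnumbered odd ones (899 elements with 2, 4 or 6 reads, 307 with 1, 3 or 5, in siLuc DMSO), so mates may be counted singly and the intervals be too narrow. The authors' deposited score, a fold change to log base 1.5, was not used. Total RNA values are FPKM with p-values and q-values by the authors, 1 value per group. Per-library values were not analysed here, so the planned model was replaced by the authors' calls at q below 0.05.

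Reads were scaled to the library's total on repeats. Ratios per element or run add 0.5 reads and need 20 reads in both libraries together. Sums add none. Elements named are the most-read one of each subfamily, the 3 highest and 3 lowest ratios per comparison with at least 100 reads and none at 0, and those at 0 in 1 library. The runs named and the split by ends were chosen after values were seen. Members and lists were chosen with earlier results of these data known. Gene positions are from GENCODE 29 (GRCh38). Scripts used Python with numpy 2.4.6, pandas 2.3.3 and scipy 1.17.1, and were tested on simulated data. Alternatives were other scalings, minimum reads, pseudocounts and left-out elements.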

Additional observations from a re-analysis of the deposited data

How the results depend on the processing

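No paired analysis was possible because each J2 group has 1 library and the total RNA table gives 1 value per group, so neither a replicate block nor leaving out a replicate was run. The library scaling and the most-read run decide the summed ratios. For siLuc DAC over siLuc DMSO, the log2 ratio of all elements was 0.60 under the factors in the deposited columns, -0.61 scaled to reads outside Alu, -0.60 scaled to LTR reads, 0.24 without the most-read element of each subfamily and 0.29 without the most-read run. For siStau1 DAC over siLuc DMSO these values were 0.97, 0.29, 0.029, 0.41 and 0.32. For siStau1 DAC over siLuc DAC they were 0.37, 0.91, 0.63, 0.16 and 0.039. Without the most-read run and under the deposited factors, reads outside Alu and LTR reads in turn, the values were 1.17, -0.037 and -0.024 for the comparison named first, 0.89, 0.21 and -0.053 for the next and -0.28, 0.25 and -0.029 for the last. Leaving out HERVH48 moved none of the 3 by more than its interval. The deposited factors shift every log2 ratio by 0.89, 0.57 and -0.32 in these comparisons, reads outside Alu by -0.32, -0.11 and 0.21, and LTR reads by -0.31, -0.38 and -0.07. Directions are therefore relative to the total on repeats.

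Counts of elements more than 2-fold higher and lower for siLuc DAC over siLuc DMSO were 335 and 53 under the deposited factors, 258 and 221 at a minimum of 10 reads and 64 and 43 at 50 reads. For siStau1 DAC over siLuc DMSO they were 309 and 11, 277 and 115, and 48 and 2, and scaled to LTR reads 73 and 75. For siStau1 DAC over siLuc DAC, 321 and 188 were counted at 10 reads, 90 and 36 at 50 reads, and 148 were lower under the deposited factors. A minimum changes how many elements are counted, and the part of counting error in these counts was not tested.

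Element medians kept their direction in 24 of 27 cases at 10 reads and at 50 reads, in 14 of 21 scaled to LTR reads and in 16 of 21 under each other scaling. For run medians, it was kept in 17 of 18 cases at 10 reads, 15 of 18 at 50 reads, 13 of 18 scaled to LTR reads or under the deposited factors, and 16 of 18 scaled to reads outside Alu. No test separated a 2-fold change from counting error, which weighs most on elements near the minimum of 20 reads. For siStau1 DAC over siLuc DMSO, 31 elements were more than 2-fold lower at 20 reads and 2 at 50 reads. The run-based and left-out-run values were chosen after seeing the data. The FPKM pseudocounts 0.01 and 1, in place of 0.1, cannot turn a gene ratio's direction, since both values get the same addition. They change its size. For HHLA2 in siStau1 cells the log2 ratio of DAC over DMSO was 1.90 at 0.1, 4.83 at 0.01 and 0.35 at 1.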
